A study of Mus musculus with 12 samples.

Results

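Gene expression after exposure to carbon black was compared with expression after PBS in lung CD11c+ cells of wild-type mice. The comparison used 6 of the 12 arrays of the series, chosen by the labelled genotype and exposure and not by any measured value: 3 wild-type nCB samples (nanoparticulate carbon black, a manufactured soot-like particle) and 3 wild-type PBS samples (phosphate-buffered saline, the reference). All mice were of the albino C57BL/6 strain B6(Cg)-Tyrc-2J/J and were listed as 4 months old. Exposure began at 2 months of age and lasted 1 month, and the CD11c+ cells, labelled as antigen-presenting cells, were isolated by AutoMACS magnetic sorting and snap frozen. The other 6 arrays, from Mir22 knockout mice of the same strain, age and exposures, shared the estimate of the spread and were set against the wild-type effect at the end. Whether each array stands for its own animal is not given in the labels, so the p-values reflect only how these samples vary, and that variation may be technical.

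CD11c, the integrin chain encoded by Itgax, is carried in the mouse lung by alveolar macrophages and by dendritic cells. Alveolar macrophages live on the airway surface, clear inhaled particles and take up and burn the lipids of surfactant, a programme that depends on the growth factor GM-CSF and on the transcription factor Pparg. Macrophages that enter from blood monocytes and dendritic cells that carry antigen to lymph nodes share the CD11c gate but use other receptors and transcription factors.

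Illumina bead arrays were used, and each probe gives a fluorescence intensity and a detection p-value against negative control beads. Mean raw intensity over the 6 arrays lay between 186 and 218, and 32.2% to 35.0% of the 45281 probes were detected on each. The number of arrays, 3 per group, limits the precision of every comparison. Within groups, log2 intensities correlated at 0.987 to 0.992 across probes. The first principal component of the 6 arrays carried 68.5% of the variance, and placed the PBS samples at scores of −26.3 to −25.5, far from the nCB samples at 23.5 to 28.7.

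The labelled cell type was checked against markers. Itgax was detected on all 6 arrays, at 5.76, 5.94 and 6.10 log2 units with PBS and 5.44, 5.92 and 5.99 with nCB, and did not pass the test (−0.15 ± 0.20, adjusted p = 0.69). The 17 measured alveolar macrophage markers averaged 10.27 to 10.38 log2 units on PBS arrays and 9.19 to 9.56 on nCB arrays. The 2 measured markers of eosinophils, mast cells and basophils stayed near background, at 4.30 to 4.55 on average. Markers of other cell types lay higher on PBS arrays: epithelial at 7.12 to 7.41 on average, T and NK cell at 6.81 to 7.24. Neutrophil markers lay at 6.19 to 6.65, endothelial and stromal markers at 6.05 to 6.52 and B cell markers at 5.56 to 6.11. Which cells gave this signal was not tested. Haemoglobin message varied widely between samples. Hba-a1, a haemoglobin chain, lay at 13.41, 9.62 and 11.44 with PBS and at 11.39, 11.10 and 10.12 with nCB, with the highest value in PBS 1 and the lowest in PBS 2. Its difference of −0.62 did not pass the test (adjusted p = 0.632), and with this spread an effect of exposure can be neither shown nor denied. Its part in the results was not tested.

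After nCB, 1099 of 12380 features were higher (8.88%) and 1141 were lower (9.22%) at an adjusted p under 0.05, and these are the features described as having risen or fallen. The counts for gene lists below are to be read beside these shares, as some lists lie near them. A feature is a gene, or a probe without a gene symbol, detected on at least 3 of the 12 arrays. Rises were larger than falls at the extremes: 314 features rose and 172 fell by over 1 log2 unit, and 78 rose and 11 fell by over 2. Of the 2240 calls, 2208 had groups of 3 that did not overlap. The share over all features was not counted, and few calls overlap, so separate groups below add no support to a call. A call is described as held where it stayed in each of the 6 fits that left out 1 wild-type array, which was so for 713 of the rises and 653 of the falls. Another probe was available for 767 of the called genes, and for 662 of them every other probe differed in the same direction.

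**Figure D1:**
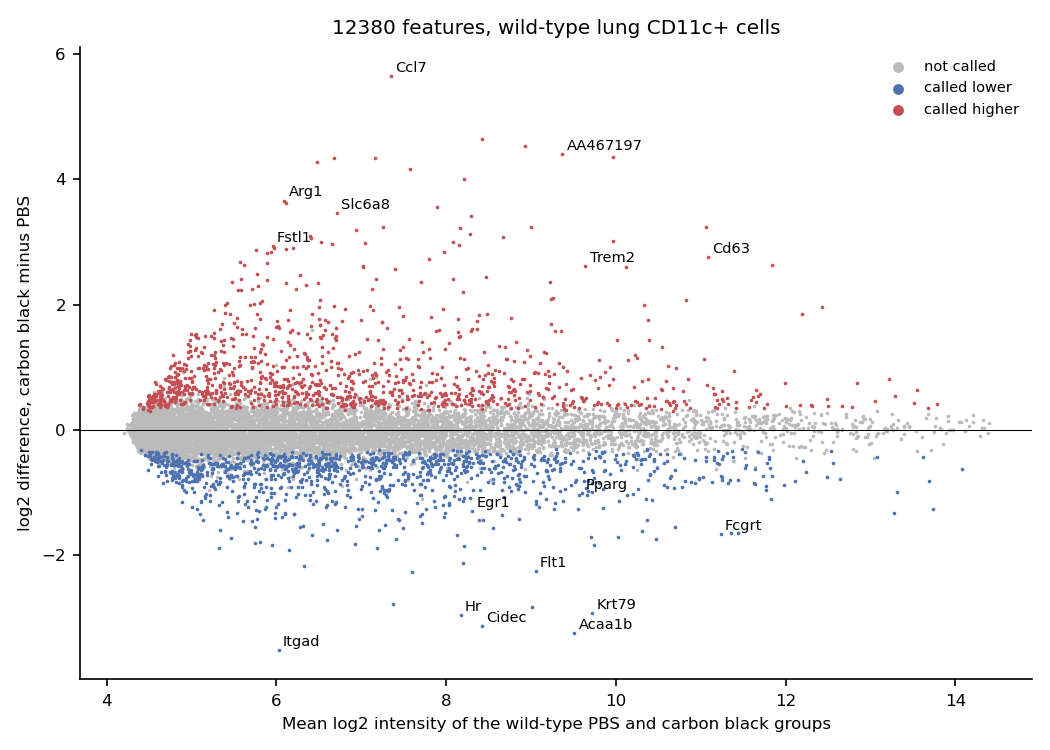
Each point is 1 of 12380 features, with the mean log2 intensity of the wild-type groups on the horizontal axis and the log2 difference, carbon black minus PBS, on the vertical axis. The 1099 features called higher reach 5.66 log2 units (Ccl7) and the 1141 called lower reach −3.52 (Itgad, by a probe that no nCB array detected, with the other probe at −2.73).

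Outside chemokines, complement and proteases, the largest rises took in neuropeptide, adaptor and metabolic genes. Syngr1, a synaptic vesicle protein, lay at 4.62, 4.53 and 4.35 with PBS and at 9.05, 8.92 and 8.57 with nCB, a rise of 4.35 ± 0.15 log2 units (20.4-fold, adjusted p = 4.77e-11). Its PBS values lay near the lowest detected signals of those arrays (4.52, 4.51 and 4.58), and the fitted rise ran from 2.53 to 6.95 over all settings. Wfdc17, a small secreted protein of the whey acidic protein family, lay at 7.35, 7.98 and 8.01 with PBS and at 12.25, 12.04 and 12.15 with nCB, a rise of 4.37 ± 0.16 (20.6-fold). Lat2, a membrane adaptor of myeloid and B cells, lay at 6.54, 6.49 and 6.63 against 9.85, 9.60 and 9.86 (+3.22 ± 0.14, adjusted p = 6.06e-10). The groups lay apart by far more than either group's spread, but these genes were picked from calls without overlap. Npy, encoding neuropeptide Y, was not detected on any PBS array and was at least 16.9-fold higher with nCB. Its opposite among neuropeptides was Gal, encoding galanin, at 10.39, 10.63 and 10.24 with PBS and 7.53, 7.59 and 7.66 with nCB (−2.83 ± 0.14, 7.10-fold lower).

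Genes that burn fat fell more often than they rose. Of 29 measured genes of fatty acid oxidation, 11 fell and 2 rose, with a median log2 difference of −0.25 against −0.02 over all features, and 9 of the falls held. Acaa1b, a thiolase of peroxisomal beta-oxidation, lay at 11.33, 10.92 and 11.15 with PBS and at 7.68, 8.49 and 7.51 with nCB. The groups lay far apart, and the difference was −3.24 ± 0.22 log2 units (9.43-fold lower, adjusted p = 5.79e-08). Acot1, a thioesterase that releases fatty acids from coenzyme A, was not on the list and fell by 1.70. Smaller falls came from both organelles that oxidise fat: Hsd17b4, a peroxisomal enzyme, changed by −0.91 ± 0.14, and Ech1, an isomerase for unsaturated chains, by −0.91 ± 0.11. Cpt2, the inner membrane step of the carnitine shuttle, changed by −0.67 ± 0.12, with 2 further probes at −0.58 and −0.64, and Hadhb, a subunit of the mitochondrial trifunctional protein, by −0.85 ± 0.20. The rises were those of Crat (+0.53), which lost its call with median scaling, and of Echs1 (+0.41), which lost it whichever wild-type array was left out.

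Genes that store fat fell with them. Of 21 measured genes of lipid droplets and triglyceride storage, 8 fell, 7 of them held, and 1 rose (median −0.27). Cidec, which fuses lipid droplets into larger ones, lay at 10.02, 10.06 and 9.88 with PBS and at 6.50, 7.34 and 6.73 with nCB (−3.13 ± 0.17, 8.76-fold lower, adjusted p = 3.62e-09). G0s2, an inhibitor of the droplet lipase, fell by 1.55, and Lpin1, which makes the diacylglycerol precursor, by 1.42. Dgat2, the last enzyme of triglyceride synthesis, fell by 1.06 and Mgll, which breaks down monoglycerides, by 0.96, so that both synthesis and breakdown were represented. The single rise, that of Hilpda (+0.77), a droplet protein that inhibits lipolysis, was lost with median scaling.

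Handling of fatty acids and sterols was mixed rather than uniformly lower. Of 12 measured genes of fatty acid binding and uptake, 4 rose and 1 fell. Slc27a1, a fatty acid transport protein, lay at 5.26, 5.17 and 5.09 with PBS and at 6.94, 6.64 and 6.90 with nCB (+1.65 ± 0.20), a call lost in the authors' processed matrix. Fabp5, a fatty acid binding protein, rose by 1.02. In fatty acid synthesis 1 of 11 rose and 3 fell: Fads1, a desaturase that makes arachidonic acid, rose by 1.85 ± 0.14, while the elongases Elovl5 (−0.71) and Elovl6 fell, the latter at least 1.89-fold because no nCB array detected it. Among 16 measured genes of cholesterol efflux and LXR targets, 4 rose and 4 fell. Apoe, the lipid carrier secreted by macrophages, lay at 8.36, 8.14 and 8.13 against 10.53, 10.35 and 10.09 (+2.11 ± 0.21, adjusted p = 2.51e-06). Its neighbour Apoc1 went the other way, at 8.11, 8.05 and 7.97 against 6.54, 7.29 and 5.73 (−1.52 ± 0.28, other probe −1.28). Ch25h, which makes an oxysterol, rose by 2.09 ± 0.37, and Abcg1, a sterol exporter, changed by −0.98 ± 0.16. The rises of Cyp27a1 (+0.45) and Nr1h3 (+0.38), the gene of LXR alpha, did not hold: without PBS 1, PBS 3, nCB 1 or nCB 2 the count of rises was 2. Cholesterol synthesis had 1 rise and 1 fall among 15 genes (6.67% each, near the shares over all features), neither held.

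Glycolysis leaned higher. Of 19 measured genes, 9 rose, 7 of them held, and 2 fell (median 0.28, or 0.21 with an undetected gene at its bound), but median scaling left 4 rises. Slc2a1, the main glucose transporter of activated macrophages, lay at 6.97, 7.13 and 7.15 with PBS and at 8.64, 8.53 and 8.84 with nCB (+1.59 ± 0.11, 3.00-fold, adjusted p = 8.10e-08). Hk3, a myeloid hexokinase, rose by 1.46 ± 0.12. Pgam1, a mutase of lower glycolysis, rose by 1.14 ± 0.13, though its other probe gave +0.36. The falls were those of Pfkfb4 (−0.94), which sets the level of a phosphofructokinase activator, and of Pdk1 (−0.62), which restrains pyruvate entry into mitochondria. In the pentose phosphate pathway 3 of 9 genes fell and held, among them Idh1 (−0.63), and 2 rose without holding (Rpe and H6pd, +0.52 each). Neither was called without PBS 3 or without nCB 3, and 1 of them was called without PBS 1, PBS 2 or nCB 2.

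Of 37 measured respiratory chain genes 34 were not called (median 0.04), and of 21 citric acid cycle genes 18 were not (median −0.02), beside 10140 of all 12380 features. Acod1, which diverts the cycle to itaconate in activated macrophages, was undetected with PBS (4.34, 4.36 and 4.27) and lay at 7.50, 6.98 and 7.11 with nCB, at least 6.32-fold higher (adjusted p = 3.38e-09). AA467197 was higher on every nCB array. It lay at 6.83, 7.53 and 7.14 with PBS and at 11.58, 11.44 and 11.68 with nCB, a rise of 4.40 ± 0.19 (21.1-fold, adjusted p = 6.06e-10). In human cells the protein of the corresponding gene is a paralog of NDUFA4, a subunit of the last respiratory complex, and can take its place there. Ndufa4 itself lay at 11.16, 11.31 and 11.43 with PBS and at 10.34, 10.68 and 10.40 with nCB, so that it fell while AA467197 rose (−0.83 ± 0.12, adjusted p = 0.000149). The remaining calls of both lists, on Cycs, Uqcrc2, Sdhb and Suclg2, were each lost on leaving out at least 1 wild-type array. The respiratory chain kept 0 rises without PBS 1, PBS 2, PBS 3, nCB 1 or nCB 2 and 1 fall without PBS 1, PBS 2, nCB 2 or nCB 3. The citric acid cycle kept 1 rise without PBS 1, PBS 3 or nCB 1 and 0 falls without any array other than nCB 2.

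Genes of amino acid supply moved both ways. Of 20 measured genes of amino acid transport and synthesis, 6 rose and 4 fell, and all 10 calls held. Asns, asparagine synthetase, lay at 5.86, 6.20 and 5.95 with PBS and at 8.08, 8.20 and 8.47 with nCB (+2.24 ± 0.16, other probe +1.32). Slc7a11, the cystine importer, lay at 5.11, 4.87 and 4.84 against 7.19, 7.09 and 7.56 (+2.34 ± 0.16), while its 2 further probes gave −0.06 and +1.42. Chac1, which degrades glutathione, rose by 1.46, Mthfd2, of mitochondrial folate metabolism, by 1.35 and Psat1, of serine synthesis, by 1.07. Phgdh, which catalyses the step before Psat1, fell by 0.78. Slc1a3, a glutamate transporter, lay at 7.02, 7.06 and 7.07 with PBS and at 5.33, 5.67 and 5.49 with nCB (−1.55 ± 0.14, adjusted p = 1.14e-06). Of the transcription factors that act on this gene set in stressed cells, Ddit3 rose by 1.44 ± 0.17, Atf5 by 0.89 ± 0.15 and Atf3 by 1.01 ± 0.17, and Atf4 differed by +0.45, a call kept in 4 of the 6 fits.

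The promoters of several of these genes carry the letters known as the C/EBP-ATF response element, and they are shown because genes of 2 lists that rose share them. The motif searched was TGATGNAA, or TTNCATCA on the opposite strand, in the 250 bases before each gene's start as RefSeq gives it on GRCm38.p6. It was chosen after the values were seen. It lay in 3.45% of all 32851 promoters. Counted by gene, at least 1 promoter held it in 3.91% of all 27025 genes, 2.57% of the 7992 measured genes with a promoter sequence, 3.63% of the 717 that rose and 2.16% of the 788 that fell. Among amino acid genes it was in 3 of the 6 that rose and in none of the 3 that fell and had a promoter sequence, and among AP-1 and ATF factors in 2 of 6 that rose and 0 of 5 that fell. The stretches below run 5′ to 3′ along the gene, with the match in capitals, and the match describes letters only. Jdp2 has 3 promoters, of which only the 1 shown held the match, and each other gene shown has 1.
Asns (chr6:7693210-7693252, minus strand, 15 bases before the start): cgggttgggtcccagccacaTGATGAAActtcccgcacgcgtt
Chac1 (chr2:119351029-119351076, plus strand, 185 bases before the start): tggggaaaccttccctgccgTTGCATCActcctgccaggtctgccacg
Slc7a11 (chr3:50443633-50443699, minus strand, 39 and 58 bases before the start): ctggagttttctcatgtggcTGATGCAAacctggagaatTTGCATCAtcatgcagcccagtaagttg
Atf3 (chr1:191183416-191183463, minus strand, 102 bases before the start): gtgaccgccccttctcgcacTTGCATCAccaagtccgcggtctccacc
Jdp2 (chr12:85599363-85599410, plus strand, 25 bases before the start): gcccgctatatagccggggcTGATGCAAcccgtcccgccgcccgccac

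Arginine and creatine genes rose without a fall. Of 11 measured genes of arginine and polyamine metabolism 7 rose, 6 of them held, and none fell (median 0.58). Arg1, arginase of alternatively activated macrophages, was undetected with PBS (4.20, 4.34 and 4.25) and lay at 7.92, 7.87 and 7.98 with nCB, at least 10.5-fold higher (adjusted p = 3.91e-11). Ass1, which rebuilds arginine from citrulline, lay at 5.34, 5.19 and 4.98 against 8.35, 8.02 and 8.04 (+2.96 ± 0.17). Slc6a8, the creatine transporter, lay at 4.92, 5.06 and 4.94 against 8.40, 8.36 and 8.58 (+3.47 ± 0.12, 11.1-fold). For Ass1 and Slc6a8 the gap between groups was many times the spread within them, but both were picked for their low p. The Arg1 values with PBS are background, so their spread does not measure that of Arg1. Smox, spermine oxidase, rose by 1.29 with 4 further probes between +0.30 and +1.36, and Ckb, brain-type creatine kinase, rose by 1.10.

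Enzymes of leukotriene synthesis fell and the prostacyclin receptor rose. Among 18 measured eicosanoid genes 5 rose and 5 fell, of which 4 and 3 held. Alox5, the first enzyme of leukotriene synthesis, lay at 9.74, 9.62 and 9.76 with PBS and at 8.48, 8.52 and 8.46 with nCB (−1.23 ± 0.10, adjusted p = 4.70e-07, further probes −1.21 and −1.31). Ltc4s, which adds glutathione to leukotriene A, lay at 10.23, 10.21 and 10.12 against 8.65, 9.22 and 8.90 (−1.26 ± 0.15). Ptgir, the prostacyclin receptor, lay at 5.16, 5.02 and 5.13 against 7.33, 7.52 and 7.23 (+2.26 ± 0.11, adjusted p = 1.43e-09). No array of either group reached the range of the other in these genes. The count of falls was 3 without PBS 1 or PBS 3.

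Iron and heme genes included several rises. Among 19 measured iron and heme genes, 7 rose (5 held, 4 with median scaling) and 2 differed downwards, neither of which held. Slc11a1, which pumps iron and manganese out of the phagosome, lay at 8.63, 9.02 and 8.81 with PBS and at 11.46, 11.37 and 11.45 with nCB, a rise of 2.61 ± 0.12 (6.11-fold) that its 3 further probes shared at 2.29 to 2.85. Its relative Slc11a2 rose by 0.78, Lcn2, which binds the siderophores of bacteria, by 1.98 ± 0.22 and Hmox1, heme oxygenase, by 0.93 ± 0.19. The falls of Ncoa4 (−0.87) and Slc40a1 (−0.44), the ferritin adaptor and the iron exporter, were both absent without PBS 2, PBS 3, nCB 1 or nCB 3. Of 20 genes of the vacuolar proton pump and lysosome formation 7 rose and none fell (median 0.26), with Atp6v0a1 at +0.70 and Atp6v1c1 at +0.69, but median scaling left 0 of the 7. Mt1, a metallothionein, lay at 12.84, 13.04 and 13.24 against 12.07, 12.24 and 12.45 (−0.79 ± 0.15).

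**Figure D2:**
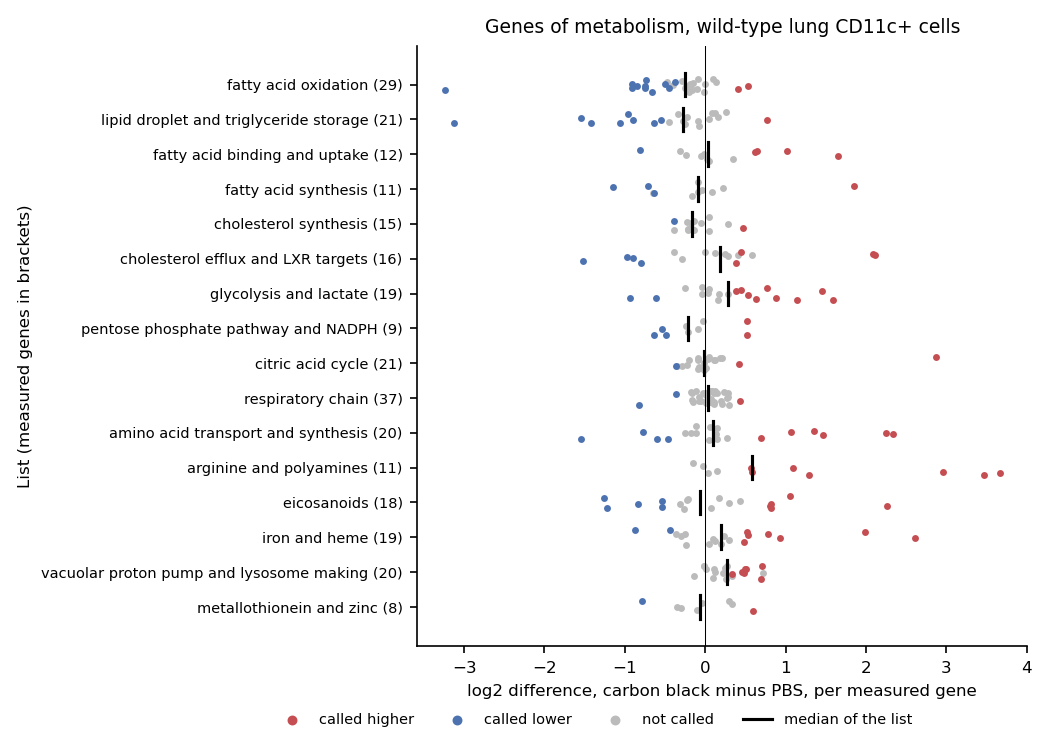
Each point is a measured gene, placed by its log2 difference between carbon black and PBS (horizontal axis), in rows for the 16 lists of metabolic genes with the number measured in brackets, coloured by call, and the bar is the list median. Fatty acid oxidation and lipid droplet genes have most calls to the left of 0, arginine genes have all calls to the right, and most respiratory chain genes lie near 0.

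Scavenger receptors moved both ways. Of 12 measured scavenger receptors 4 rose and 3 fell. Msr1, the class A scavenger receptor, lay at 4.39, 4.54 and 4.35 with PBS, where 1 of 3 arrays detected it, and at 6.74, 6.66 and 6.58 with nCB (+2.23 ± 0.11, adjusted p = 1.50e-09). Cxcl16, a membrane receptor for oxidised lipoprotein as well as a chemokine, rose by 3.01 ± 0.15, and Stab1, a hyaluronan and lipoprotein receptor, by 1.30 with further probes at +0.91 and +1.38. Mrc1, the mannose receptor, lay at 11.49, 11.64 and 11.68 against 10.80, 10.91 and 10.89 and fell by 0.74 ± 0.14. Marco, the class A receptor that binds inhaled particles, lay at 8.42, 8.00 and 8.51 against 7.61, 8.24 and 7.28, with overlapping groups, and did not pass (−0.60 ± 0.24, adjusted p = 0.111). Falls of Ager (−1.01) and Cd44 (−0.36) did not hold, so that the count of falls was 1 without PBS 1, PBS 2 or nCB 3.

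Among C-type lectins and galectins 10 of 26 measured genes rose and 7 fell, of which 8 and 5 held (6 and 7 with median scaling). Clec4d, which pairs with Clec4e to detect mycobacterial glycolipid and dead cells, lay at 7.06, 7.60 and 7.47 with PBS and at 10.56, 10.42 and 10.87 with nCB, a rise of 3.24 ± 0.19 (9.47-fold, adjusted p = 1.00e-08). Clec4e itself rose by 1.07, but its other probe gave +0.02. Clec5a, a DAP12-coupled receptor, rose by 1.46, with 3 further probes at +1.15 to +1.35, and Cd207, langerin, by 1.27 by a probe undetected with PBS. Falls included those of Clec4a3, at 9.84, 9.96 and 9.80 against 8.62, 8.71 and 8.77 (−1.17 ± 0.10), of Ly75, an endocytic receptor (−0.69), and of Cd209b, which no nCB array detected (at least 2.22-fold lower).

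Fc receptors and immunoglobulin-like receptor pairs also moved both ways. Of 34 measured genes 9 rose and 10 fell, and 5 and 7 of these held. Trem2, a lipid and lipoprotein receptor that signals through DAP12, lay at 8.18, 8.24 and 8.58 with PBS and at 11.08, 10.86 and 10.91 with nCB (+2.62 ± 0.14, 6.13-fold, adjusted p = 2.96e-09). The inhibitory receptors Lilrb4a and Cd300a rose by 1.24 and 0.82. Fcgrt, the neonatal Fc receptor that recycles IgG, lay at 12.09, 12.12 and 12.00 against 10.16, 10.63 and 10.42 and fell by 1.67 (SE 0.13, 3.18-fold, adjusted p = 1.88e-07), with its other probe at −1.87. Cd47, the signal against engulfment, fell by 0.92 and Treml4 by 1.12. Sirpa, the receptor of Cd47, differed by −0.68, a call lost without nCB 1. The count of rises was 5 without PBS 1 or nCB 2 and 3 with median scaling.

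Integrins moved both ways. Itgad, encoding CD11d, lay at 7.98, 7.91 and 7.47 with PBS and at 4.25, 4.33 and 4.22 with nCB by a probe that no nCB array detected (−3.52 ± 0.15, adjusted p = 4.00e-10). Its other probe, detected on some nCB arrays, gave −2.73. Itgae, CD103 of airway dendritic cells, lay at 6.15, 6.10 and 6.06 against 8.71, 8.43 and 8.90 (+2.57 ± 0.22), with 4 further probes between +0.91 and +2.47. Itgam, CD11b, rose by 0.98 ± 0.11 from 1 of 3 PBS arrays with detection to all nCB arrays, and Itgal, the leukocyte integrin CD11a, changed by −0.67 ± 0.12. In all, 5 of 16 integrins rose and 2 fell. Itga5, Itgav and Itgb5 were the rises that did not hold: 2 rises were left without PBS 1, PBS 3, nCB 2 or nCB 3, and 3 without PBS 2.

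Sensors of microbial products moved both ways. Of 23 measured toll-like and inflammatory sensors 5 rose and 5 fell, with 5 and 4 held (4 and 3 with median scaling). Tlr5, the flagellin receptor, lay at 6.99, 6.40 and 6.56 with PBS and at 4.87, 5.01 and 4.66 with nCB (−1.81 ± 0.18, 3.50-fold lower, adjusted p = 3.33e-06). Tlr8 fell by 0.99 and the cytosolic peptidoglycan sensor Nod1 by 0.80. The accessory proteins Ly96 (+0.89), Ly86 (+0.92) and Cd180 (+0.76), which serve the endotoxin receptor and its relative, and the kinase Irak2 (+1.13) rose, as did Tlr13 (+0.85), a sensor of bacterial RNA whose call was lost with median scaling. Attractant receptors gave 4 rises and 3 falls among 16, of which 2 and 1 held (2 and 2 with median scaling): Cxcr1 (+1.57) and Gpr183, an oxysterol receptor (+1.13), rose, and Fpr2, a formyl peptide receptor, lay at 12.27, 12.33 and 12.51 against 11.34, 11.18 and 11.32 (−1.09 ± 0.11). The count of rises was 2 without PBS 3 or nCB 2, and that of falls was 1 without PBS 3, nCB 1, nCB 2 or nCB 3.

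Receptors for cytokines and growth factors rose and fell in equal number. Of 44 measured, 8 rose and 8 fell, and 5 and 4 held (5 and 4 with median scaling). Il7r lay at 5.94, 6.00 and 5.97 with PBS and at 8.27, 8.26 and 8.61 with nCB (+2.41 ± 0.15, 5.31-fold, further probes +0.24 and +1.16), and Kit, the stem cell factor receptor, rose by 1.17. Il1r2, a decoy for interleukin-1, rose by 1.22, from detection on 1 PBS array. Flt1, a receptor of VEGF that mouse alveolar macrophages express, lay at 10.21, 10.24 and 10.09 against 7.85, 8.05 and 7.89 (−2.25 ± 0.13, 4.77-fold lower, adjusted p = 8.71e-09). Both chains of the interleukin-6 receptor fell, Il6ra by 0.70 and Il6st by 0.75. Of the receptors for growth factors of lung macrophages, Csf1r (0.02 ± 0.23) and Csf2ra (−0.06 ± 0.11) did not pass, and Tgfbr2 passed narrowly (−0.44 ± 0.14, adjusted p = 0.0421) but was not called without PBS 1, PBS 2, nCB 1 or nCB 3. The count of rises was 5 without PBS 2 or nCB 1. The count of falls was 5 without PBS 1 or PBS 2 and 4 without nCB 1.

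G protein-coupled receptors for metabolites showed 5 rises and 6 falls among 23, all of which held. Gpr84, a receptor of medium-chain fatty acids, lay at 4.43, 4.35 and 4.43 with PBS and at 6.24, 6.48 and 6.45 with nCB (+1.99 ± 0.13). This probe was undetected with PBS, and the other, detected on all PBS arrays, gave +1.31. P2rx4, an ATP-gated channel counted with them, rose by 1.29. The receptors of short-chain and long-chain fatty acids fell, Ffar2 by 1.22 and Ffar4 by 0.66, with Hcar2, a receptor of hydroxybutyrate and niacin, at −0.61. The ADP receptor P2ry13 (−0.86), the cannabinoid receptor Cnr2 (−0.78) and Ramp1 (−0.85), part of the receptor for calcitonin gene-related peptide, fell too.

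Genes of apoptotic cell clearance moved both ways. Of 18 measured, 6 rose and 3 fell. Mfge8, which links phosphatidylserine to integrins, lay at 9.86, 9.77 and 9.72 with PBS and at 11.73, 12.06 and 11.80 with nCB (+2.08 ± 0.12, other probe +2.34), and Gas6, a ligand of the TAM kinases, rose by 1.46. Pros1, the other TAM ligand, changed by −0.90 ± 0.12. Axl, the TAM kinase of alveolar macrophages, lay at 12.88, 12.75 and 12.96 against 12.06, 12.15 and 12.14 (−0.75 ± 0.14), though its other probe gave −0.01, and the fall of Mertk (−0.71) was lost with median scaling.

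Membrane channels and carriers rose more often than they fell, 9 against 5 of 21 measured, with 8 and 3 held. Kcnn4, a calcium-activated potassium channel, lay at 4.82, 4.67 and 4.52 with PBS and at 7.73, 7.37 and 7.58 with nCB (+2.89 ± 0.14, 7.40-fold, adjusted p = 8.69e-10). Kcnk13, a leak potassium channel, lay at 4.58, 4.64 and 4.45 against 7.32, 6.87 and 7.47 (+2.67 ± 0.16). Both channels were detected on only 2 of 3 PBS arrays. Aqp9, a channel for water and glycerol, rose by 2.61 ± 0.14 and Slc37a2, a phosphate-linked sugar phosphate exchanger, by 1.86. Slc6a4, the serotonin transporter, fell by 1.17 and Slco2b1, an organic anion carrier, by 0.94. The count of falls was 3 without PBS 1 or nCB 3. Tetraspanins and fusion proteins included Cd63, a lysosomal and exosomal tetraspanin, at 9.37, 9.67 and 10.07 against 12.36, 12.60 and 12.42 (+2.76 ± 0.19, further probes +2.70 and +1.92).

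**Figure D3:**
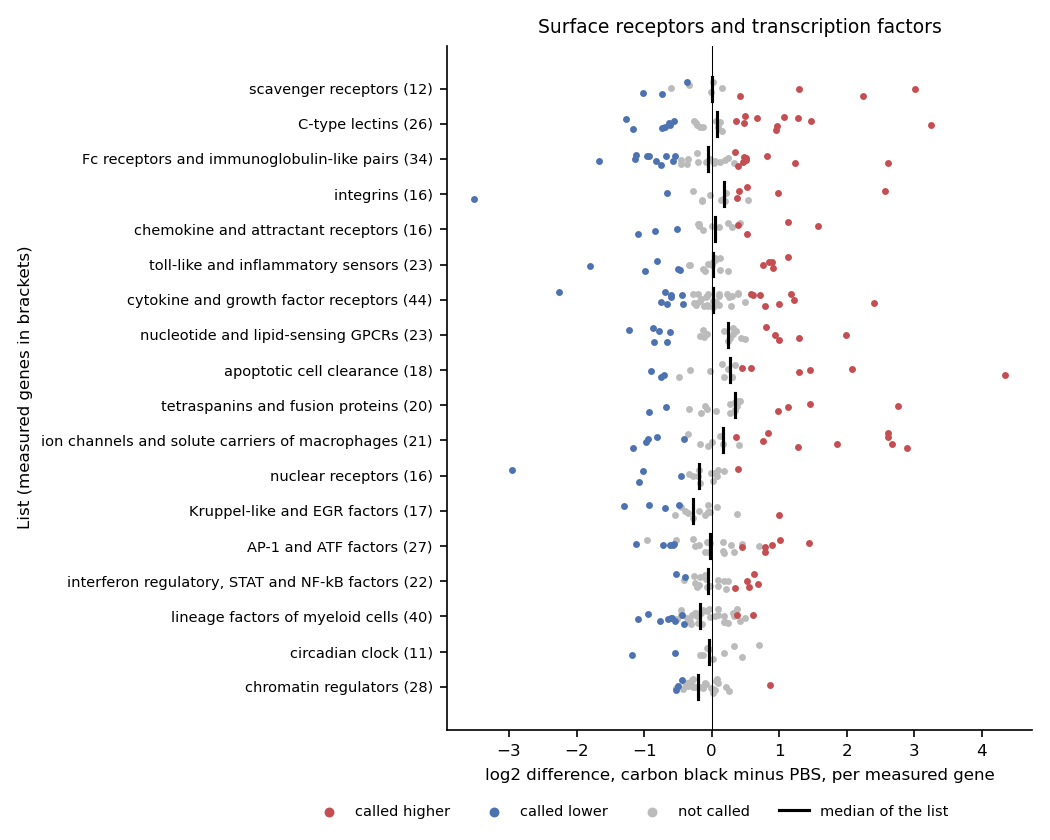
Each point is a measured gene, placed by its log2 difference between carbon black and PBS, in rows for the lists of surface receptors and transcription factors with the number measured in brackets, coloured by call, and the bar is the list median. Receptor lists hold points on both sides of 0 beyond 2 log2 units (Clec4d at 3.24, and Itgad at −3.52 by a probe undetected with nCB), and the transcription factor furthest from 0 is Hr at −2.95.

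Among transcription factors, Hr, Pparg and Rxra fell, while most nuclear receptors were not called. Of 16 measured nuclear receptors and cofactors 4 fell, 3 of them held, and 1 rose (Nr1h3, above; 0 rose without PBS 1, PBS 3, nCB 1 or nCB 2). Hr, the nuclear receptor corepressor hairless, lay at 9.70, 9.72 and 9.51 with PBS and at 6.52, 6.68 and 6.89 with nCB (−2.95 ± 0.13, 7.72-fold lower, adjusted p = 5.36e-10, other probe −1.30). Pparg lay at 10.20, 9.92 and 10.19 against 8.85, 9.34 and 9.10, and its difference of −1.01 ± 0.13 (2.01-fold lower, adjusted p = 5.13e-05) was shared by 2 further probes at −0.99 and −0.98. Rxra, the partner of Pparg on DNA, lay at 6.25, 6.33 and 6.30 against 5.24, 5.44 and 5.01 (−1.07 ± 0.13). The groups were separate in all 3 genes, as in most calls.

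Lineage factors of myeloid cells fell in 9 of 40 measured, 5 of which held, and rose in 2, neither of which held (median −0.18, or −0.15 once genes below detection are set to their bound). Tcf7l2, a factor of the Wnt pathway, lay at 9.05, 8.74 and 8.69 with PBS and at 7.62, 7.85 and 7.74 with nCB (−1.09 ± 0.16, other probe −0.57). Meis1, a homeobox factor, fell by 0.94, and Id3, which blocks E proteins, by 0.77. The rise count was 0 without PBS 3 and 1 without PBS 1, nCB 1, nCB 2 or nCB 3. Among Kruppel-like, zinc finger and EGR factors 4 of 17 fell and 1 rose (median −0.28). Egr1, an immediate early factor, lay at 8.15, 9.24 and 9.49 with PBS and at 7.64, 7.37 and 7.97 with nCB, where the lowest PBS value came close to the highest nCB value (−1.30 ± 0.27, adjusted p = 0.00343). Zeb1 fell by 0.92 and Klf13 by 0.69, and Egr3 rose by 0.99 (other probe +0.05). Klf4 (−0.54, adjusted p = 0.0795), Egr2 (−0.45, 0.0957), Cebpb (−0.45, 0.0613), Bhlhe40 (+0.33, 0.397) and Hdac4 (−0.39, 0.113), given here with the log2 difference and the adjusted p, were not called.

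AP-1 and ATF factors moved both ways. Of 27 measured factors 6 rose and 5 fell, and 5 and 3 held. Fos lay at 10.14, 11.17 and 10.50 with PBS and at 9.12, 9.38 and 9.93 with nCB (−1.13 ± 0.25, adjusted p = 0.00479). Dusp1, a phosphatase induced with Fos, lay at 10.47, 11.46 and 10.79 against 9.47, 9.89 and 10.07 (−1.10 ± 0.25), and Zfp36, which degrades cytokine messages, fell by 0.81. In each of these genes PBS 2 was the highest PBS sample. Jdp2, a repressor of AP-1, rose by 0.80, beside the rises of Ddit3, Atf3 and Atf5, and Xbp1 and Bach1 fell by 0.62 and 0.58. The count of falls was 3 without PBS 2. Interferon regulatory, STAT and NF-kB factors gave 5 rises and 2 falls among 22, but median scaling left 0 of either, and the count of rises was 3 without PBS 2, PBS 3, nCB 1 or nCB 2. The count of falls was 1 without PBS 1, PBS 2 or nCB 1.

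Calls among clock and chromatin genes are given beside 8.88% higher and 9.22% lower over all features. Of 11 clock genes 2 fell: Per1 lay at 7.00, 7.65 and 7.19 with PBS and at 5.77, 6.09 and 6.44 with nCB (−1.18 ± 0.20, other probe −0.78), and Csnk1e, its kinase, differed by −0.55, a call lost with median scaling. Of 28 chromatin regulators 1 rose and 3 fell. Hdac9, a class IIa deacetylase, was undetected with PBS and at least 1.54-fold higher with nCB. Smarca2, an ATPase of the SWI/SNF complex, fell by 0.50, but its 3 further probes gave +0.11, −0.10 and −0.15.

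Secreted growth factors and matrix proteins mostly rose. Of 31 measured 17 rose, 14 of them held, and 2 fell (median 0.53), with 12 rises under median scaling. Pdgfa, a mitogen of fibroblasts, lay at 5.47, 5.19 and 5.36 with PBS and at 8.64, 8.44 and 8.52 with nCB (+3.19 ± 0.18, 9.15-fold, adjusted p = 4.80e-09). Ecm1, a secreted matrix protein, lay at 6.92, 7.32 and 7.16 against 10.21, 10.02 and 10.38 (+3.07 ± 0.15, other probe +0.98). Igf1, insulin-like growth factor, lay at 6.34, 6.45 and 6.53 against 9.34, 9.19 and 8.96 (+2.72 ± 0.19). None of the nCB values of these genes came near the PBS values. The activin subunit Inhba, detected on 1 PBS array, rose by 2.49 ± 0.13 and Fstl1, a follistatin-like glycoprotein also detected on 1 PBS array, by 2.94 ± 0.26. Nrg4, an EGF family ligand, and Pdgfc fell by 1.33 and 0.68. The members of the TGF-beta and BMP pathway that rose included Inhba and Fstl1 and numbered 5 of 21, against 4 falls of which none held. The count of falls was 0 without nCB 1, 1 without PBS 1 or PBS 2 and 2 without PBS 3 or nCB 2, and the count of rises was 3 without PBS 1, PBS 3, nCB 1 or nCB 3.

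Signal regulators moved in both directions. Of 25 measured regulators of G proteins, small GTPases and MAP kinases, 6 rose and 5 fell, with 5 and 4 held. Rgs1, which damps chemokine receptors, lay at 7.73, 8.66 and 7.71 with PBS and at 9.41, 9.25 and 9.42 with nCB (+1.33 ± 0.21, further probes +1.64 and +1.60). Spred1, an inhibitor of Ras signalling, rose by 1.11. Of 17 feedback genes 4 rose and 3 fell: Socs3, an inhibitor of cytokine receptors, lay at 6.42, 7.25 and 7.08 against 8.55, 8.63 and 8.97 (+1.80 ± 0.22), Usp18, which limits interferon signalling, rose by 1.96 (not called in the authors' processed matrix), and the pseudokinase Trib1 fell by 0.93. Cell cycle genes gave 5 rises and 2 falls among 35, of which 2 and 1 held. These were 14.3% and 5.71% of the list, near the 8.88% and 9.22% over all features. Ccnd1, cyclin D1, lay at 7.57, 7.27 and 7.56 with PBS and at 9.44, 9.06 and 9.41 with nCB (+1.84 ± 0.19, further probes +1.90 and +1.48), and Cdk4, its kinase, rose by 0.75. The count of cell cycle rises was 3 without PBS 2, PBS 3 or nCB 1 and 2 without nCB 3, and 1 fall was left without PBS 2 or nCB 1.

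The genes that fell furthest included genes with no list here, members of other lists such as Itgad, Acaa1b and Hr, and markers of alveolar macrophages. Krt79, a keratin found in these macrophages in mice, lay at 11.18, 11.21 and 11.16 with PBS and at 7.96, 8.66 and 8.17 with nCB (−2.92 ± 0.17, 7.56-fold lower, adjusted p = 8.34e-09). Wfdc10 lay at 8.53, 8.91 and 8.85 against 5.52, 6.51 and 5.94 (−2.77 ± 0.22), the opposite of Wfdc17 of the same family. Krt19, a second keratin, lay at 9.49, 9.21 and 9.08 against 7.15, 7.67 and 6.57 (−2.13 ± 0.22). These groups were separate by the choice of genes, and the nCB arrays were more spread than the PBS arrays. Ppp1r9a, an actin-binding scaffold of phosphatase, was not detected with nCB and was at least 3.30-fold lower. Further falls were those of Rab44, a Rab GTPase (−2.17, other probe −0.22), Klk8, a serine protease (−1.89), Grb7, an adaptor of receptor kinases (−1.83), Best1, a chloride channel (−1.74), and Amer2, a regulator of the Wnt pathway (−1.73). Spag11b, a beta-defensin-like gene, changed by −1.88 ± 0.31, with nCB 2 at 8.51 well above nCB 1 and 3 at 6.77 and 7.26.

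**Figure D4:**
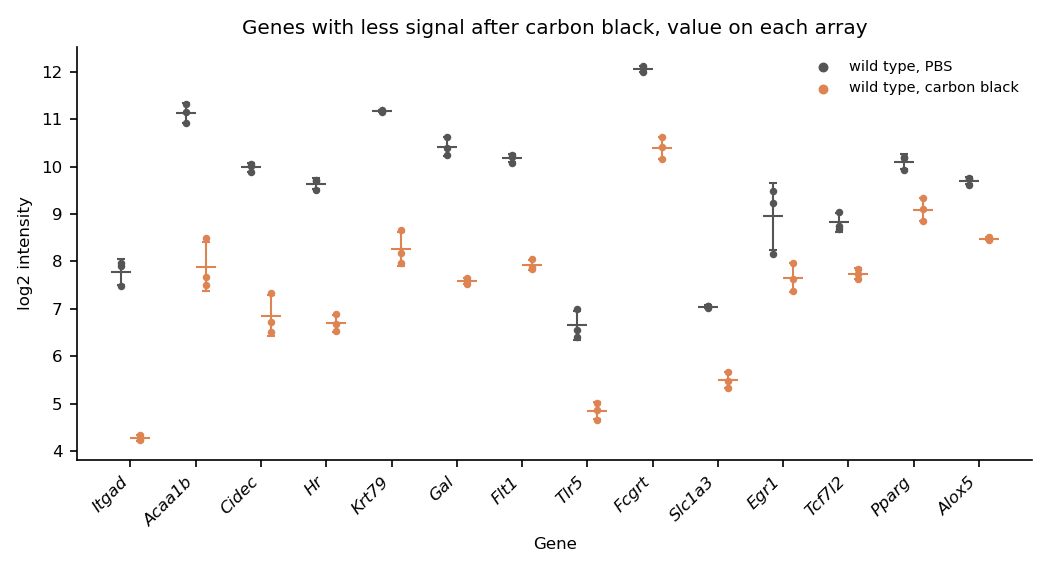
Log2 intensity (vertical axis) on each wild-type array for 14 genes that fell, with points for the 3 PBS and 3 carbon black arrays, a horizontal bar at the mean and error bars of 1 SD. The groups do not overlap in any of the 14 genes, which were picked from the calls, and Egr1 has the widest spread with PBS, from 8.15 to 9.49.

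Lists of cell type markers share members with the gene lists above, such as Cidec, Flt1, Itgae, Cd207 and Kit. Their changes are therefore not separate from those already described. Alveolar macrophage markers fell in 11 of 17 measured and rose in 1, of which 10 and 1 held (median −0.83), and their summed intensity ran from 48300 to 51628 on PBS arrays and from 36437 to 42755 on nCB arrays. Cidec, Pparg, Flt1, Mrc1, Abcg1, Slc6a4 and the keratins, described above, are among those that fell, while Car4, a carbonic anhydrase of these cells, did not pass (−0.05 ± 0.20). In bulk samples, fewer cells of a type and less RNA per cell cannot be told apart. The monocyte and interstitial macrophage list had 10 rises and 1 lower call among 19 genes (median 0.40), with summed intensities of 2611 to 2678 against 8422 to 9960. C1qa, C1qb and C1qc were among the rises, and the largest rise of the list was 4.65 log2 units. Their part in the sum was not tested. The list members Ly6c1 and Plac8 differed downwards and were not called. Ms4a7, a tetraspanning protein of tissue macrophages, lay at 6.57, 6.88 and 6.68 with PBS and at 9.86, 9.68 and 10.00 with nCB (+3.14 ± 0.15), and Folr2, a folate receptor, was undetected with PBS and at least 5.21-fold higher. Lyve1, the marker called lower (−0.54), was not called without PBS 2, PBS 3, nCB 2 or nCB 3.

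The conventional dendritic cell list had 8 rises among 13 genes, all held, and 1 lower call that did not hold (median 0.84), with summed intensities of 713 to 820 with PBS and 1946 to 2243 with nCB. They included Itgae, Cd207, Kit and Septin3 (+1.75). The fall, that of Batf3 (−0.55), was absent without PBS 1, PBS 2, nCB 2 or nCB 3. Plasmacytoid markers rose in 2 of 9, B cell markers fell in 2 of 5, T and NK markers rose in 2 and fell in 1 of 10, and neutrophil markers rose in 1 and fell in 3 of 9. Of these, both plasmacytoid rises (Cox6a2, +1.76, and Bst2, +1.32), the fall of Fcer2a on B cells (−1.14), that of Cd2 (−1.03), the rise of Il1r2 and the fall of the neutrophil gene Retnlg (−1.23) held. B cell falls numbered 1 without PBS 1, nCB 2 or nCB 3, and neutrophil falls 1 without PBS 1 or PBS 2. T and NK rises numbered 0 without PBS 2 or nCB 1 and 1 without PBS 1, PBS 3 or nCB 2. Epithelial markers rose in 1 and fell in 1 of 12 (8.33% each), near the shares over all features. The rise was that of Sftpd, a surfactant protein, higher by 1.12 ± 0.19. The part of these cell type markers in the results for the other gene groups was not tested.

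The effect of nCB in wild-type cells was then tested against that in Mir22 knockout cells, which lack the microRNA miR-22. The difference between the effects passed for 16 of 12380 features (0.129%), and 6 of these kept their call in all 12 fits that left out 1 array. Ear6, an eosinophil-type ribonuclease gene, lay at 5.30, 5.62 and 5.99 with PBS and at 8.53, 9.63 and 8.47 with nCB in wild-type cells, a rise of 3.24 ± 0.24. In knockout cells it differed by −0.07, and the difference between the effects was 3.31 ± 0.34 (adjusted p = 0.000781). Rnase2b, a close relative of Ear6, rose by 1.65 ± 0.12 in wild-type cells and differed by 0.03 in knockout cells (adjusted p = 0.000781), but the ribonucleases of this family are near-identical, so their probes may not tell them apart. Arg1 rose in both genotypes, by 3.66 and 2.26, and the effects differed by 1.41 ± 0.17 (adjusted p = 0.00210). The interferon-induced chemokine Cxcl9 lay at 5.82, 5.94 and 5.95 with PBS and at 7.88, 7.25 and 7.82 with nCB in wild-type cells, and the effects differed by 2.11 ± 0.28 (adjusted p = 0.00381). Gpr176, an orphan receptor undetected with PBS, differed by 1.33 between the effects (adjusted p = 0.00704). In the processed matrix deposited by the authors, 4 of the 6 were not called, and Ear6 and a probe without a gene symbol remained. Of the genes named for the groups above, Arg1 was among the 6 and Flt1 among the other 10. The fitted Arg1 and Gpr176 differences start from undetected PBS values and are no bounds.

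**Figure D5:**
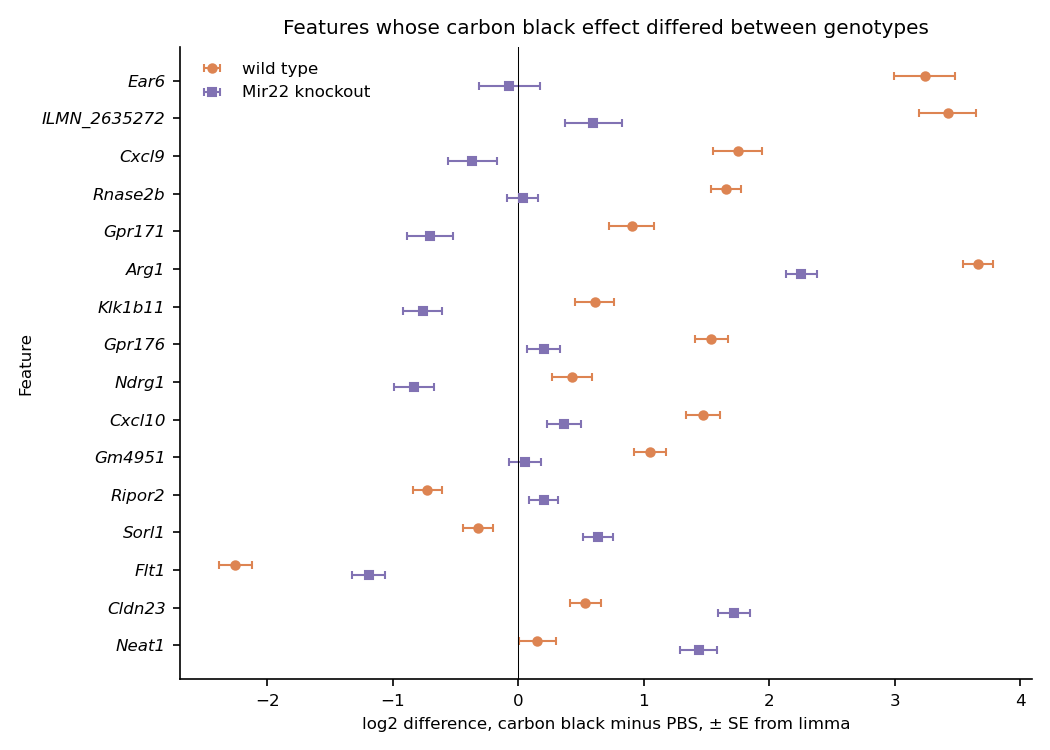
Log2 differences, carbon black minus PBS, with SE from limma (horizontal axis) for the 16 features whose effect differed between genotypes, in wild-type (circles) and Mir22 knockout cells (squares). For 11 features the wild-type effect is the higher one and for 5 the lower, with the widest gap for Ear6 (3.24 against −0.07).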

How the data were processed

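Lung CD11c+ cells were profiled on Illumina MouseWG-6 v2 bead arrays, 12 arrays in 4 groups of 3. The deposited table holds raw probe intensity and a detection p-value per array, exported from GenomeStudio per the submitters' processing notes. A second table deposited by the authors holds processed values on a log2 scale, with the normalization not given in the sources used here, and served as an alternative. Here the intensities were background corrected from the detection p-values, offset by 16 and quantile normalized (neqc, limma 3.58.1, R 4.3.3). A probe entered the fit if 3 or more of the 12 arrays had a detection p below 0.05, which left 17346 of 45281, and the probe with the highest mean for each gene gave 12380 features, of which 9809 had a symbol. Gene names came from the platform annotation, matched to RefSeq by gene ID for 9794 genes, which changed no name. Values are log2 intensities. Levels of different probes were set side by side only for marker lists, averaged or summed on each array, and depend on the probes.

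Group means were fitted with limma over all 12 arrays, differences are nCB minus PBS with their SE (n = 3 a group), and p-values are two-sided, adjusted by Benjamini-Hochberg over all features. A gene undetected in a group by all its probes is given as "at least N-fold", its brighter mean against the higher of its own signal and the lowest detected signal on each array. The members and gene lists were chosen with earlier results of these data known. Genes named are the 20 largest called differences without overlap in each direction, for each list and direction the 5 or fewer members of lowest p, and a set of always-named genes, some of which are not analysed here. Atf4, Hadhb, Hcar2, Cxcl9, Gpr176 and Rnase2b were chosen after their values were seen. Scripts were tested on simulated data. Alternatives were another background correction, offset, scaling, filter, probe summary, array weights, prior and set of arrays.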

Additional observations from a re-analysis of the deposited data

Results flagged for a closer look

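In 16 features the effect of nCB differed between wild-type and Mir22 knockout cells by a limma interaction term at an adjusted p under 0.05, and values are the wild-type minus the knockout log2 effect. Calls that stayed on leaving out any 1 of the 12 arrays were Ear6 at 3.31, the unnamed probe ILMN_2635272 at 2.82, Cxcl9 at 2.11, Rnase2b at 1.62, Arg1 at 1.41 and Gpr176 at 1.33. The unnamed probe lay at 6.64, 6.63 and 6.48 on wild-type PBS arrays and at 10.50, 9.94 and 9.57 on wild-type nCB arrays, with a knockout effect of 0.60. Of these 6, only Ear6 and the unnamed probe were also called in the authors' processed matrix.

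The other 10 lost the call without at least 1 array. Cldn23, a tight junction gene, differed by −1.19 and lost it only without knockout PBS 3. Higher effects in wild-type cells were those of Gpr171 at 1.61, Klk1b11 at 1.37, Ndrg1 at 1.25, Cxcl10 at 1.11 and Gm4951 at 0.996. Lower effects were those of Neat1 at −1.28, Flt1 at −1.06, Sorl1 at −0.96 and Ripor2 at −0.93. In Neat1, a nuclear RNA, nCB gave 0.15 in wild-type cells, which did not pass, and a rise of 1.44 in knockout cells. Arg1, Gpr176, Cxcl10, Gm4951 and Cldn23 were undetected with PBS in wild-type cells, so their fitted values are no bounds. These genes were chosen by this test, after their values were seen, and the count moved from 6 (without knockout PBS 3) to 31 (without knockout nCB 3) on leaving out 1 array.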

How the results depend on the processing

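Over all alternatives the counts of 1099 rises and 1141 falls stayed within 1.5 times, except when arrays were scaled by their medians and not by quantiles, which gave 531 and 754. Of these, 530 and 714 were also called in the main setting. Median scaling moved the median of all features to −0.107 from −0.02, and rises made up 41.3% of calls against 49.1%; the cause was not tested. Leaving out 1 wild-type array gave 847 to 977 rises and 815 to 1014 falls. Leaving out 1 knockout array, an alternative chosen after seeing the data, gave 1069 to 1115 and 1115 to 1179. The 16 differences between genotypes were less stable: 6 were called with median scaling, 6 in the authors' processed matrix, 9 with no filter on dim probes, 27 with array weights and 6 to 31 on leaving out 1 array (31 without knockout nCB 3, 26 without wild-type nCB 2). The cause was not tested. Arrays with the same replicate number did not deviate together (correlations of 0.198, −0.048 and 0.130, against −0.308 to 0.220 for different numbers), so the numbers were not taken to pair samples, and with a replicate block 1088 rises, 1152 falls and 17 genotype differences were called. Fitted sizes for genes near background with PBS moved with the settings, from 2.53 to 6.95 log2 units for Syngr1 and 1.87 to 7.22 for Arg1. With 3 arrays a group and a median SE of 0.141 log2 units, small differences and probes near background are the least certain.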
